A study of Mus musculus with 36 samples.

Results

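Described here are 9 transcription factors of stem cell identity in sorted LT-HSC, the long-term hematopoietic stem cells, and in early progenitors of hypercholesterolemic mice. *Mecom*, *Hlf*, *Prdm16*, *Meis1*, *Gfi1b*, *Erg*, *Runx1*, *Tal1* and *Lyl1* were chosen by name, and each matched a single row among the 38887 genes of the deposited count table. All 9 passed the filter on low counts in every model fitted. In the bone marrow (BM), such factors bind shared enhancers in overlapping groups, and together hold the stem cell in an undifferentiated and mostly quiescent state. *Mecom*, *Prdm16* and *Hlf* are known for restricted expression at the top of the hematopoietic hierarchy and for maintaining stem cells in adults. *Tal1*, *Lyl1*, *Runx1* and *Erg*, with *Gata2*, *Fli1* and *Lmo2*, form a group known as the heptad, which acts across stem cells and several blood lineages.

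In the study, BM cells of mice fed a Western diet (WD) and infused with angiotensin II (Ang II), a model of abdominal aortic aneurysm, were sequenced to ask how IL-27 receptor signaling bears on the stem cell response. All mice were *Apoe*-/- on the C57BL/6 background, with *Il27ra* intact, heterozygous (*Il27ra*+/-) or deleted (*Il27ra*-/-), and they were fed WD for 12 weeks beginning at 8 weeks of age. Pumps delivered Ang II or PBS for 2 weeks, and 5000 cells were sorted for each library. LT-HSC were gated as Lin- Sca-1+ c-kit+ CD150+ CD48- cells, and HPC-1, named short-term cells in the labels, as the CD150- CD48+ cells of the same compartment. With PBS, LT-HSC gave 1 *Il27ra*-intact, 3 *Il27ra*+/- and 3 *Il27ra*-/- libraries. With Ang II they gave 2 *Il27ra*-intact, 4 *Il27ra*+/- and 4 *Il27ra*-/- libraries. HPC-1 gave 2, 3 and 3 libraries with PBS and 3, 4 and 4 with Ang II, in the same order of genotypes. The 17 LT-HSC and 19 HPC-1 libraries held 1980283 to 6861078 counts, with a median of 3139364. Levels are given as CPM, the counts of a gene relative to the scaled total of its library, and differences as log2 fold changes. The labels do not state that the libraries of a group came from separate animals, so each p-value measures the spread between these libraries. A legend of the study counts mice by genotype, without assigning them to libraries, and lists fewer *Il27ra*-/- mice than there are Ang II libraries of that genotype.

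The sort labels were compared with marker genes before any result was drawn. The mean log2 CPM of 15 stem cell markers minus that of 10 multipotent progenitor markers lay between 2.40 and 4.44 in 14 of the 17 LT-HSC libraries, and between -6.07 and -4.56 in HPC-1. In the library labelled LT-HSC, PBS, *Il27ra*-/-, replicate 2, that difference was -4.94, which is inside the range of HPC-1. Its *Cd48* level of 62.5 CPM compared with 0 to 8.18 CPM in the other LT-HSC libraries and 44 to 85.5 CPM in HPC-1, and its *Slamf1* (CD150) level was 2.36 CPM against 20.7 to 73.7 CPM in the other LT-HSC libraries. The markers therefore went against the label of this library, which was kept under its label in the main model and left out in an alternative. The LT-HSC, Ang II, *Il27ra*-/-, replicate 2 library lay between both cell types at -1.22, and its 12 granulocyte and monocyte genes summed to 7973 CPM, led by *S100a9* at 2178 CPM, against a median of 149 CPM over LT-HSC. That library also held 3309 CPM over 12 erythroid genes and 364 CPM over 8 mast cell and basophil genes, the highest sums of LT-HSC for both lists. Apart from both LT-HSC *Il27ra*-/- replicate 2 libraries, the granulocyte and monocyte genes summed to at most 1517 CPM in LT-HSC. The LT-HSC, PBS, *Il27ra*-/-, replicate 3 library had a difference of 1.02 and 3283 CPM over the erythroid genes, where the median of LT-HSC was 107 CPM. Lists of other cells were at low levels, with 12 B lymphoid genes, led by *Cd79b*, at 7.96 to 39.2 CPM in LT-HSC and 7.73 to 48.1 CPM in HPC-1. The 10 endothelial genes summed to 7.08 to 76.5 CPM in LT-HSC, led by *Kdr*, and to 3.74 to 15.4 CPM in HPC-1. The 8 mast cell and basophil genes had medians of 3.35 CPM in LT-HSC and 48.3 CPM in HPC-1, with *Cpa3* the most abundant in HPC-1.

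*Il27ra* itself was read in every library as a check of the genotypes. Among LT-HSC libraries, the intact pair with Ang II had 42.8 and 51.7 CPM of *Il27ra*, the *Il27ra*+/- libraries had 23.8 to 42.7 CPM, and those of *Il27ra*-/- mice had 6.93 to 19.3 CPM. The single intact LT-HSC library with PBS, at 17.1 CPM, was within the range of the deleted libraries. In HPC-1 *Il27ra* ran from 4.63 to 16.5 CPM and the genotypes overlapped, so the genotype labels of HPC-1 could not be checked by this gene.

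The *Il27ra*-intact libraries stood apart in another way. Over a list of 35 intestinal epithelial genes, the 3 intact LT-HSC libraries summed to 557, 748 and 936 CPM, whereas the other 14 ran from 57.5 to 135 CPM, with a median of 111 CPM. *Dmbt1* was the most abundant gene of the list in the intact LT-HSC libraries, with a mean of 127 CPM, and 3 of the 35, *Fabp1*, *Olfm4* and *Phgr1*, had no count there. In the other LT-HSC libraries *Krt18* was the most abundant, and 8 of the 35, *Muc2* and *Tff3* among them, had no count. The 5 intact HPC-1 libraries summed to 147 to 521 CPM, with a median of 167 CPM, against 47.6 to 119 CPM in the other 14. Libraries also fell apart by Y-linked transcripts. Of the 36 libraries, 24 held over 100 Y-linked counts and 12 held 0 or 1, and 11 of those 12 were the 11 libraries with the most counts in total. *Xist* was the reverse, at 3.4 to 71.8 CPM in LT-HSC and 0 to 24 CPM in HPC-1 with Y-linked counts, and at 3527 to 4576 CPM and 3569 to 4356 CPM without them. The labels give no sex, the study used mice of both sexes and held sex as a factor in its own models, and every intact library was among the 24.

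The main question was how the 9 factors differ between LT-HSC and HPC-1. *Mecom*, which encodes the zinc finger protein EVI1, was at 31 CPM in the lowest, 255 in the median and 374 in the highest LT-HSC library, and at 5.2, 29.5 and 61.4 CPM in HPC-1. *Prdm16*, its PR-domain relative, was at 20.8, 116 and 156 CPM in LT-HSC and at 0, 14.9 and 24.3 CPM in HPC-1. For both genes 16 of the 17 LT-HSC libraries were above every HPC-1 library, and the exception was the PBS *Il27ra*-/- replicate 2 library that carried HPC-1 markers. Without it the lowest LT-HSC library had 151 CPM of *Mecom* and 79.6 CPM of *Prdm16*. Averaged over the 5 conditions with at least 2 libraries of each cell type, *Mecom* was 8.18-fold higher in LT-HSC, or 3.03 on the log2 scale (SE 0.27, adjusted p = 2.4e-09). Here and in what follows p-values come from the quasi-likelihood test of edgeR and were adjusted by Benjamini-Hochberg over every gene tested. *Prdm16* was 7.66-fold higher, or 2.94 on the log2 scale (SE 0.26, adjusted p = 1.8e-09 by edgeR). In bulk RNA, fewer cells with a transcript and less of it per cell cannot be told apart.

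**Figure D1:**
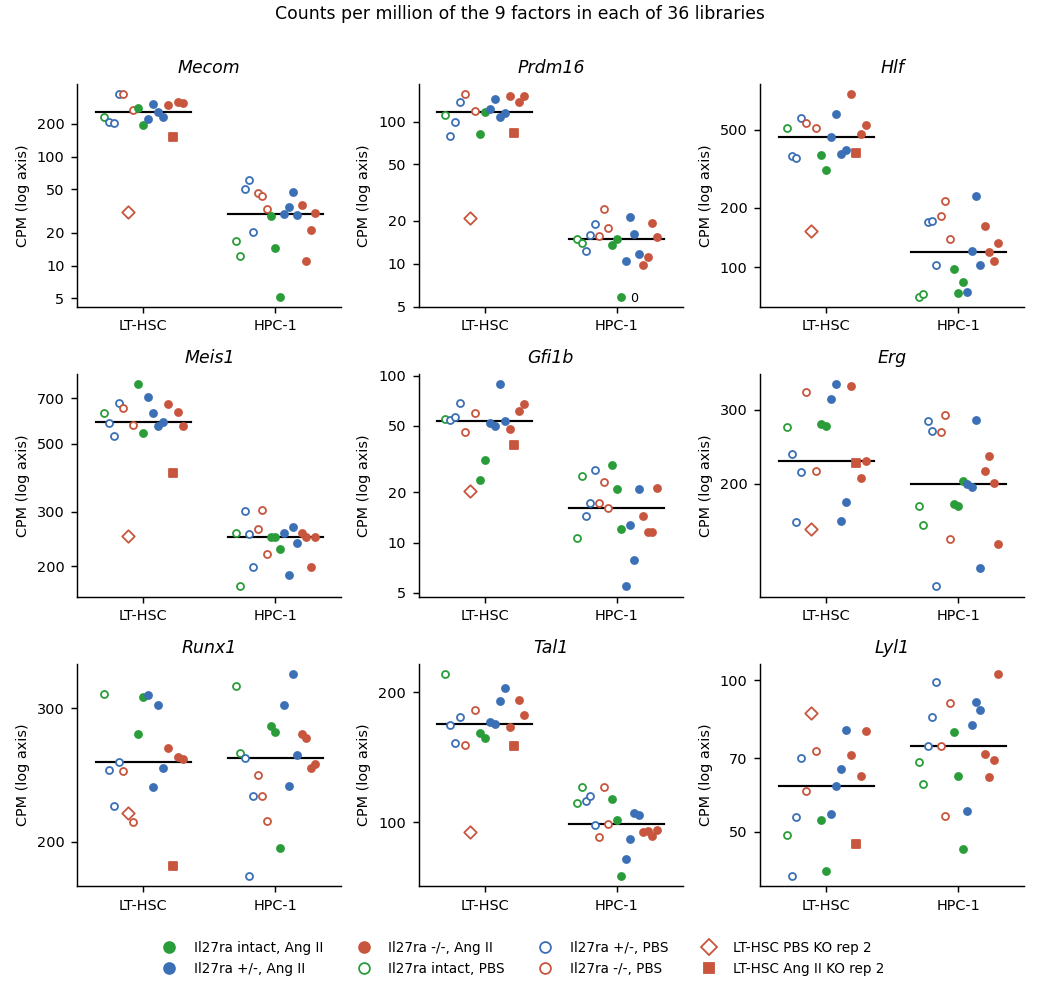
Level of each factor (vertical axis, CPM on a log scale) in the 17 LT-HSC and 19 HPC-1 libraries. Each point is a library, open for PBS and filled for Ang II, green for *Il27ra* intact, blue for *Il27ra*+/- and red for *Il27ra*-/-, the diamond and the square are the LT-HSC *Il27ra*-/- replicate 2 libraries with PBS and Ang II, each bar is a median, and the library with 0 counts of *Prdm16* is drawn under the lowest value and marked 0.

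*Hlf*, a PAR bZIP factor, was at 152 CPM in the lowest, 462 in the median and 760 in the highest LT-HSC library and at 70.8, 119 and 230 CPM in HPC-1. *Meis1*, a TALE homeodomain factor and cofactor of HOX proteins, was at 250, 586 and 780 CPM in LT-HSC and at 172, 249 and 304 CPM in HPC-1. Here too 16 of 17 LT-HSC libraries were above every HPC-1 library for either gene, with the same exception, and without it the lowest LT-HSC values were 311 CPM for *Hlf* and 402 CPM for *Meis1*. *Hlf* was higher in LT-HSC by 1.71 on the log2 scale (SE 0.16, adjusted p = 5.9e-09 by edgeR). *Meis1* was higher by 1.25 on the log2 scale (SE 0.10, adjusted p = 6.4e-12 by edgeR).

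*Gfi1b*, a zinc finger repressor that acts in stem cells and in the erythroid and megakaryocytic lineages, had a lower median CPM in LT-HSC than the genes above. Per kilobase of exon its LT-HSC median, 29.4 CPM, was above those of *Mecom* (20.5) and *Prdm16* (12.5) and below those of *Hlf* (69.2) and *Meis1* (55.6). *Gfi1b* was at 20.4, 53.8 and 89.2 CPM in the lowest, median and highest LT-HSC library and at 5.46, 16.2 and 29 CPM in HPC-1. Of the 17 LT-HSC libraries 15 were above every HPC-1 library, and the exceptions were the PBS *Il27ra*-/- replicate 2 library and an Ang II *Il27ra*-intact library at 23.6 CPM. *Gfi1b* was higher in LT-HSC by 1.47 on the log2 scale (SE 0.17, adjusted p = 1.2e-08 by edgeR). The sum of 12 megakaryocytic genes was also higher, with a median of 539 CPM in LT-HSC and 120 CPM in HPC-1. *Itga2b* led it in both, with means of 349 and 92.1 CPM, so the sums describe that gene more than the list. The part of these genes in the *Gfi1b* difference was not tested.

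The 4 heptad members among the factors were less alike. *Tal1*, a basic helix-loop-helix factor, was at 94.8, 169 and 221 CPM in the lowest, median and highest LT-HSC library and at 74.9, 99.1 and 121 CPM in HPC-1. Again 16 of 17 LT-HSC libraries were above every HPC-1 library, all but the PBS *Il27ra*-/- replicate 2 library, without which the lowest had 150 CPM. *Tal1* was higher in LT-HSC by 0.72 on the log2 scale (SE 0.08, adjusted p = 2.4e-09 by edgeR). Its close relative *Lyl1* was at 40.8, 61.7 and 86 CPM in LT-HSC and at 46.3, 74.1 and 103 CPM in HPC-1. The cell types overlapped for *Lyl1*, since 2 of the 17 LT-HSC libraries were below every HPC-1 library and 14 were below the HPC-1 median. *Lyl1* was lower in LT-HSC, with a log2 fold change of -0.31 (SE 0.11, 95% interval -0.52 to -0.09, adjusted p = 0.0206 by edgeR). That call ended with relative log expression scaling (-0.24, adjusted p = 0.0755), with DESeq2 (-0.24, adjusted p = 0.0689), and when any 1 of 5 libraries was left out. Those were the HPC-1 libraries PBS *Il27ra*+/- replicate 1 (-0.24, adjusted p = 0.0899) and replicate 3 (-0.26, 0.0717), PBS *Il27ra*-/- replicate 3 (-0.24, 0.0832) and Ang II intact replicate 2 (-0.28, 0.0513), and the LT-HSC library Ang II intact replicate 2 (-0.28, 0.0666). Over all alternatives the log2 fold change of *Lyl1* ran from -0.40 to -0.24 and its adjusted p from 0.00056 to 0.0899. *Lyl1* overlaps *Nfix* on the opposite strand, which had a median of 215 CPM in LT-HSC and 126 CPM in HPC-1, the opposite direction to *Lyl1*. The study used a strand-preserving kit, but the strand setting of the quantification is not stated, so whether counts of *Nfix* entered those of *Lyl1* is uncertain.

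*Runx1*, the DNA-binding subunit of core binding factor, was at 186, 255 and 313 CPM in the lowest, median and highest LT-HSC library and at 180, 258 and 333 CPM in HPC-1. Those ranges overlapped almost in full, and none of the 17 LT-HSC libraries was above or below every HPC-1 library. For *Runx1* the log2 fold change was 0.03 (SE 0.07, 95% interval -0.12 to 0.18, adjusted p = 0.89 by edgeR). The interval bounds the difference at a small size on either side, and does not show that it was 0. *Erg*, an ETS factor required to maintain stem cells, was at 156, 227 and 346 CPM in LT-HSC and at 114, 200 and 292 CPM in HPC-1. *Erg* overlapped as well, with 4 of the 17 LT-HSC libraries above every HPC-1 library. Its log2 fold change was 0.22 (SE 0.15, 95% interval -0.08 to 0.52, adjusted p = 0.27 by edgeR).

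*Erg* and *Lyl1* also differed between the libraries with and without Y-linked counts. *Erg* was at 224 to 346 CPM in the 9 LT-HSC libraries with Y-linked counts and at 156 to 227 CPM in the 8 without. In HPC-1 *Erg* was at 160 to 292 CPM in the 15 libraries with them and at 114 to 148 CPM in the 4 without. *Erg* was thus high in the libraries that held Y-linked counts. In the 11 libraries with the most counts, the lack of Y-linked counts and the depth cannot be told apart. The LT-HSC, PBS, *Il27ra*+/-, replicate 2 library also lacked Y-linked counts but had 2560838 counts, within the range of those with them, and its *Erg* level was 162 CPM. That library stood apart in other ways, with the most genes with a count, 26187, and the highest scaling factor, 1.245. Its *Erg* level is therefore given as a description only. *Lyl1* was the other way round, at 40.8 to 70.9 CPM with and 53.6 to 86 CPM without Y-linked counts in LT-HSC, and at 46.3 to 90.7 CPM with and 87.3 to 103 CPM without them in HPC-1. With Y-linked expression as a term in the model, *Erg* differed by 0.42 on the log2 scale between LT-HSC and HPC-1 (SE 0.08, adjusted p = 5.1e-05 by edgeR), so the call for *Erg* depended on that choice. Over all alternatives the adjusted p of *Erg* ran from 5.1e-05 to 0.53. *Gfi1b* was at 23.6 to 55.1 CPM in the LT-HSC libraries with Y-linked counts, and without them at 20.4 CPM in the library with HPC-1 markers and at 53.8 to 89.2 CPM in the rest.

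In all, 7 of the 9 factors (77.8%) passed an adjusted p of 0.05 between LT-HSC and HPC-1, 6 higher and 1 lower in LT-HSC, where 36.3% of all 18013 genes tested passed, 3220 higher and 3323 lower. That split depended on the scaling, with 3660 higher and 2681 lower by relative log expression and 3940 and 2871 by DESeq2. The median log2 fold change was 1.25 over the 9 factors and 0.03 over all genes, a value that rose to 0.12 with DESeq2. The factors were chosen with earlier results of these data known, so their share is a description. Without the LT-HSC library with HPC-1 markers 7 of the 9 passed as well, with *Mecom* at 3.14, *Prdm16* at 3.04, *Hlf* at 1.80, *Gfi1b* at 1.54, *Meis1* at 1.32, *Tal1* at 0.77 and *Lyl1* at -0.33 on the log2 scale. Without the *Il27ra*-intact libraries, an alternative chosen after seeing the data, 7 of the 9 passed, and 7 passed when both LT-HSC *Il27ra*-/- replicate 2 libraries were left out as well.

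**Figure D2:**
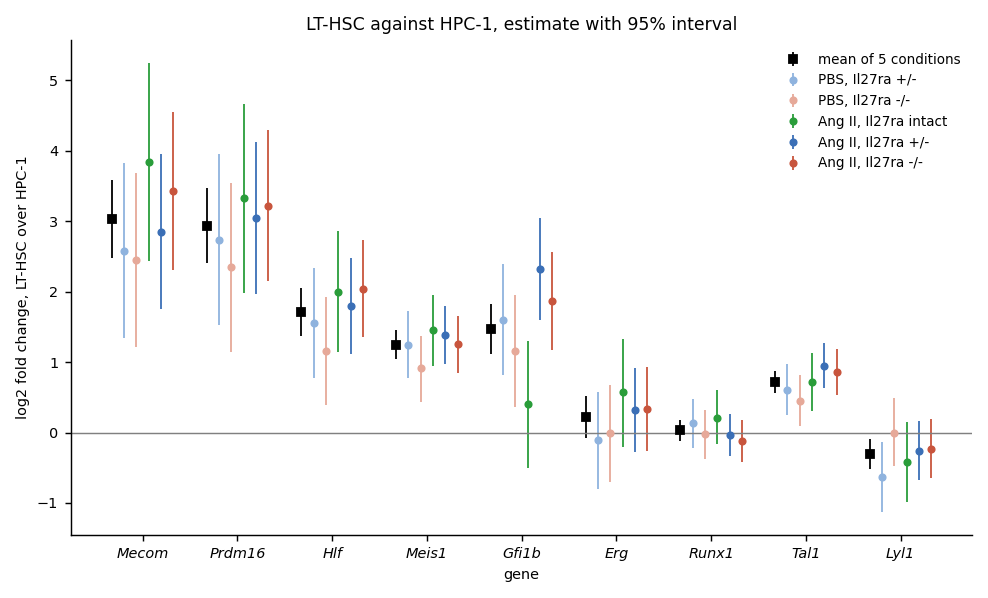
Log2 fold change between LT-HSC and HPC-1 (vertical axis, positive values are higher in LT-HSC) for each factor (horizontal axis), as the mean over 5 conditions and in each condition. Points are estimates from edgeR and lines are 95% intervals, and the means run from 3.03 for *Mecom* to -0.31 for *Lyl1*.

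The other members of the heptad were all higher in LT-HSC, 3 of 3 tested against 17.9% of all genes, with a median log2 fold change of 1.00. *Gata2*, a zinc finger factor of stem and progenitor cells, had a median of 434 CPM in LT-HSC and 163 CPM in HPC-1, with 16 of 17 LT-HSC libraries above the HPC-1 median (log2 fold change 1.41, SE 0.13, adjusted p = 3.8e-10 by edgeR). *Fli1*, the ETS paralog of *Erg*, had medians of 274 and 131 CPM, again with 16 of 17 above (1.00, SE 0.09, adjusted p = 1.5e-11 by edgeR). *Lmo2*, the LIM-only protein that bridges TAL1 and GATA factors, had medians of 709 and 452 CPM, with 17 of 17 above (0.59, SE 0.07, adjusted p = 3.1e-08 by edgeR). So within the heptad *Erg* and *Runx1* did not pass the test in the main model and *Lyl1* went the other way, whereas *Tal1*, *Gata2*, *Fli1* and *Lmo2* were higher in LT-HSC. With Y-linked expression in the model *Erg* passed as well (0.42, adjusted p = 5.1e-05 by edgeR), and *Lyl1* again passed as lower in LT-HSC. The call of *Lyl1* ended in several other alternatives, and its log2 fold change ran from -0.40 to -0.24 over all alternatives.

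Binding partners of the factors moved in both directions, and each list is read against the 36.3% of all genes called, 17.9% higher and 18.4% lower. Of 10 genes of the TAL1 and LYL1 complex, 5 were higher in LT-HSC, 1 was lower and 4 did not pass, so 60% were called, with a median log2 fold change of 0.22. Besides *Gata2* and *Lmo2*, these were the corepressor *Cbfa2t3* (0.67, adjusted p = 6.9e-06 by edgeR, 17 of 17 LT-HSC libraries above the HPC-1 median), the LDB1 cofactor *Ssbp3* (0.48, adjusted p = 0.00081, 16 of 17) and the E protein *Tcf12* (0.27, adjusted p = 0.00646, 15 of 17). The E protein *Tcf3* was lower in LT-HSC (log2 fold change -0.32, adjusted p = 0.00326 by edgeR, 2 of 17 above). *Cbfb*, which encodes the non-DNA-binding partner of RUNX1, was also lower, with medians of 89.3 CPM in LT-HSC and 137 CPM in HPC-1 and 0 of 17 LT-HSC libraries above the HPC-1 median (log2 fold change -0.53, SE 0.08, adjusted p = 7.2e-07 by edgeR). RUNX1 and its partner thus differed, since *Runx1* itself was at like levels in both cell types.

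Of 6 partners of MEIS1, 4 were higher in LT-HSC (66.7%, against 17.9% of all genes) and 2 did not pass, with a median log2 fold change of 1.02. *Pbx3* (1.74, adjusted p = 6.4e-07 by edgeR, 16 of 17), *Hoxa10* (1.63, adjusted p = 3.6e-05, 17 of 17) and *Hoxa9* (0.40, adjusted p = 0.00586, 17 of 17) were among those higher, with the number of LT-HSC libraries above the HPC-1 median given for each. Of 6 corepressors of GFI1B, 2 were higher, 1 was lower and 3 did not pass, with a median of -0.01, and in a list of this size the 50% called is not far from the 36.3% of all genes. *Rcor2* (1.11, adjusted p = 3.2e-06 by edgeR, 17 of 17) and *Rcor3* (0.55, adjusted p = 0.00239, 16 of 17), which bind the demethylase LSD1, were higher, and the deacetylase gene *Hdac2* was lower (-0.35, adjusted p = 0.00415, 1 of 17 above). Of 5 corepressors of MECOM and PRDM16, 2 were lower and 3 did not pass, with a median of -0.18, and the 40% called is near the 36.3% of all genes, so the count is no result about this list. The histone methyltransferase genes *Suv39h1* (-0.70, adjusted p = 2.1e-06 by edgeR) and *Ehmt2* (-0.27, adjusted p = 0.0045) were lower, each with 1 of 17 LT-HSC libraries above the HPC-1 median.

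Paralogs of the factors did not share their pattern as a list. Of 10 paralogs, 3 were higher in LT-HSC, 4 were lower and 3 did not pass, so 70% were called against 36.3% of all genes, with a median log2 fold change of -0.02. *Meis2* had a median of 2.93 CPM in LT-HSC and 0 CPM in HPC-1, so the estimate of 3.92 on the log2 scale (SE 0.61, adjusted p = 2.6e-06 by edgeR, 17 of 17) rests on few counts. *Meis3* was also low, at medians of 1.25 and 0.219 CPM (2.41, SE 0.69, adjusted p = 0.00529 by edgeR, 15 of 17). *Gfi1*, the paralog of *Gfi1b* with a known role in granulocytes, went the other way from *Gfi1b*, at medians of 13.3 CPM in LT-HSC and 42.4 CPM in HPC-1 (log2 fold change -1.52, SE 0.23, adjusted p = 3.2e-06 by edgeR, 1 of 17 above). *Runx3* (-0.70, adjusted p = 4e-05 by edgeR, 1 of 17 above), *Runx2* (-0.29, adjusted p = 0.0219, 6 of 17) and *Nfil3*, a bZIP relative of *Hlf* with medians of 3.67 and 7.74 CPM (adjusted p = 0.0269, 1 of 17), were lower in LT-HSC.

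Of 12 other transcription factors linked to stem cells or progenitors, 8 were higher in LT-HSC, 2 were lower and 2 did not pass, so 83.3% were called against 36.3% of all genes, with a median log2 fold change of 0.71. *Hoxb5*, a known marker of LT-HSC, had medians of 12.7 CPM in LT-HSC and 0.589 CPM in HPC-1 (3.84, SE 0.45, adjusted p = 1.2e-08 by edgeR, 17 of 17 above the HPC-1 median). *Nkx2-3* (2.81, adjusted p = 2.7e-10 by edgeR, 17 of 17), the GATA cofactor *Zfpm1* (2.05, adjusted p = 4.6e-10, 17 of 17) and *Gata3* (1.94, adjusted p = 5.2e-08, 16 of 17) were higher too. *Myb*, which drives progenitor proliferation, had medians of 791 CPM in LT-HSC and 1209 CPM in HPC-1 (log2 fold change -0.55, SE 0.07, adjusted p = 4.2e-08 by edgeR, 0 of 17 above). *Ikzf2* was lower as well (-0.71, adjusted p = 1.4e-06 by edgeR, 0 of 17 above).

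The cell types were next compared within each condition, with groups that share no library. In Ang II-infused *Il27ra*+/- mice 6 of the 9 factors passed, where 14.9% of 18013 genes did. *Mecom* was at 221, 300, 255 and 231 CPM in LT-HSC and at 29.5, 34.6, 46.9 and 29 CPM in HPC-1 (log2 fold change 2.85, adjusted p = 0.00065 by edgeR, 4 of 4 LT-HSC libraries above all HPC-1). *Gfi1b* was at 51.8, 50.1, 89.2 and 53.8 CPM in LT-HSC and at 5.46, 12.8, 7.82 and 21 CPM in HPC-1 (2.32, adjusted p = 3.2e-05 by edgeR, 4 of 4 above all). For both genes the groups did not overlap, and the 89.2 CPM of *Gfi1b* in replicate 3 was well above the other LT-HSC libraries of its group. *Prdm16* (3.05, adjusted p = 0.00028 by edgeR), *Hlf* (1.80, 0.00049), *Meis1* (1.39, 1.8e-05) and *Tal1* (0.95, 8e-05) were the other factors that passed, each with 4 of 4 LT-HSC libraries above all HPC-1. *Erg* was at 0.32 (adjusted p = 0.52 by edgeR), and passed with Y-linked expression in the model (0.47, adjusted p = 0.032), in a range of 0.032 to 0.86 over all alternatives.

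In Ang II-infused *Il27ra*-/- mice 6 of the 9 factors passed, against 12.5% of all genes. *Mecom* was at 298, 151, 313 and 308 CPM in LT-HSC and at 35.7, 11.1, 21.1 and 30.6 CPM in HPC-1 (3.43, adjusted p = 0.00024 by edgeR, 4 of 4 above all). The lowest of these LT-HSC values belonged to the replicate 2 library with granulocyte transcripts, and it was still above every HPC-1 library. *Prdm16* (3.22, adjusted p = 0.00025 by edgeR), *Hlf* (2.04, 0.00025), *Gfi1b* (1.87, 0.00036), *Meis1* (1.26, 9.8e-05) and *Tal1* (0.86, 0.00034) were likewise higher in LT-HSC, each with 4 of 4 libraries above all HPC-1. *Erg* was at 0.34 (adjusted p = 0.52 by edgeR), and passed with Y-linked expression in the model (0.55, adjusted p = 0.0144), in a range of 0.0144 to 0.82 over all alternatives.

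In Ang II-infused *Il27ra*-intact mice 5 of the 9 factors passed, against 10.4% of all genes. *Mecom* (3.84, adjusted p = 0.00092 by edgeR), *Prdm16* (3.33, 0.00201), *Hlf* (2.00, 0.00286), *Meis1* (1.45, 0.00041) and *Tal1* (0.72, 0.0181) were higher, in 2 of 2 LT-HSC libraries above all 3 HPC-1 libraries for each gene. When 1 library was left out, the log2 fold change ran from 3.44 to 4.54 for *Mecom* and from 2.79 to 3.79 for *Prdm16*. *Tal1* no longer passed when the HPC-1 replicate 3 library was left out (0.56, adjusted p = 0.11 by edgeR). It was at 0.69 without the LT-HSC replicate 1 library and at 0.74 without LT-HSC replicate 2, in fits that left only the other LT-HSC library in this group. With the compared groups fitted alone *Prdm16* (3.39, adjusted p = 0.0549) and *Tal1* (0.76, 0.0945) missed the threshold, as did *Tal1* without a filter on low counts (0.72, 0.0731). Over all alternatives the adjusted p of *Tal1* ran from 0.00179 to 0.15 and that of *Prdm16* from 7.4e-22 to 0.0549. *Gfi1b* was at 23.6 and 31.3 CPM in LT-HSC and at 29, 20.9 and 12.1 CPM in HPC-1. Those groups overlapped, and the log2 fold change of *Gfi1b* was 0.40 (SE 0.45, 95% interval -0.51 to 1.30, adjusted p = 0.63 by edgeR). *Erg* was at 0.57 (adjusted p = 0.35 by edgeR), and passed with Y-linked expression in the model (0.59, adjusted p = 0.0415), in a range of 0.0415 to 0.53 over all alternatives. Whether the *Gfi1b* difference between cell types varied between intact mice and the other genotypes was not tested.

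In PBS-infused *Il27ra*+/- mice 6 of the 9 factors passed, against 7.67% of all genes, with 691 genes higher and 691 lower in LT-HSC. With relative log expression scaling those counts were 797 and 363, and with DESeq2 they were 1168 and 650. The median log2 fold change of all genes was 0.16, 0.27 and 0.28 under the 3 scalings. It was -0.00 with a filter at a mean of 10 counts, -0.00 with the compared groups alone and 0.45 without a filter. That shift thus depended on these choices, and the fold changes below are not corrected for it. *Mecom* was at 208, 203 and 374 CPM in LT-HSC and at 50.6, 61.4 and 20.5 CPM in HPC-1, with 3 of 3 LT-HSC libraries above all HPC-1 (2.58, adjusted p = 0.0106 by edgeR). *Prdm16* (2.74, adjusted p = 0.00591 by edgeR), *Hlf* (1.56, 0.0127), *Meis1* (1.25, 0.00126), *Gfi1b* (1.60, 0.0101) and *Tal1* (0.61, 0.0314) were higher in 3 of 3 LT-HSC libraries too. Single libraries decided some calls. Without the LT-HSC replicate 3 library, *Mecom* (2.27, adjusted p = 0.0554), *Hlf* (1.34, 0.0796) and *Tal1* (0.61, 0.10) missed the threshold, and without LT-HSC replicate 1 *Tal1* did (0.61, 0.0657). Without HPC-1 replicate 3, *Mecom* (2.28, adjusted p = 0.0532), *Hlf* (1.40, 0.0561) and *Tal1* (0.60, 0.0853) missed it, without HPC-1 replicate 2 *Gfi1b* (1.52, 0.0529) and *Tal1* (0.66, 0.0642), and without HPC-1 replicate 1 *Gfi1b* (1.54, 0.0603). Without the 11 libraries with the most counts, *Mecom* (1.87, adjusted p = 0.082), *Prdm16* (2.66, 0.0644), *Hlf* (1.10, 0.13) and *Tal1* (0.50, 0.29) missed it, each at its highest adjusted p over all alternatives, and *Tal1* also missed it without a filter on low counts (0.60, 0.13). *Lyl1* had its lowest estimate here, with a log2 fold change of -0.63 (95% interval -1.13 to -0.14, adjusted p = 0.11 by edgeR), and it passed with Y-linked expression in the model (-0.78, adjusted p = 0.0156), within a range of 0.0156 to 0.29 over all alternatives.

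In PBS-infused *Il27ra*-/- mice 3 of the 9 factors passed, against 0.883% of all genes. *Mecom* was at 372, 31 and 268 CPM in LT-HSC and at 46.5, 43.1 and 33.1 CPM in HPC-1. The 31 CPM belonged to the replicate 2 library with HPC-1 markers, which was below every HPC-1 library, and the other 2 LT-HSC libraries were above them. *Mecom* (2.45, adjusted p = 0.0495 by edgeR), *Prdm16* (2.35, 0.0495) and *Meis1* (0.91, 0.0444) passed, each with 2 of 3 LT-HSC libraries above all HPC-1. Without the replicate 2 library *Mecom* was at 3.00 on the log2 scale, 6 factors passed among 1164 genes, and *Hlf* (1.57, adjusted p = 0.00291 by edgeR), *Gfi1b* (1.52, 0.0121) and *Tal1* (0.70, 0.0103) were the ones gained. The LT-HSC group then held only replicates 1 and 3. Stem cell minus progenitor markers were at 4.17 in replicate 1 and at 1.02 in replicate 3, so replicate 3 also stood apart from most LT-HSC libraries. Leaving out LT-HSC replicate 1, LT-HSC replicate 3 or any of the 3 HPC-1 libraries instead ended all 3 calls, and the adjusted p of *Mecom* was then 0.41, 0.20, 0.18, 0.21 and 0.16 in that order. For *Prdm16* it was 0.38, 0.21, 0.24, 0.19 and 0.15, and for *Meis1* 0.47, 0.27, 0.17, 0.13 and 0.15. Over these left-out libraries the log2 fold change ran from 1.89 to 3.00 for *Mecom*, from 1.88 to 2.86 for *Prdm16* and from 0.68 to 1.25 for *Meis1*. With the compared groups fitted alone none of these 3 genes passed, at an adjusted p of 0.50 for each, the highest over all alternatives. *Prdm16* also missed the threshold with Y-linked expression in the model (2.36, adjusted p = 0.0523 by edgeR), in a range of 2.1e-13 to 0.50 over all alternatives. Without the 11 libraries with the most counts *Prdm16* was at 2.96, in a fit that left only the replicate 1 library in this LT-HSC group. *Hlf* passed with DESeq2 (1.23, adjusted p = 0.0234), in a range of 1.1e-05 to 0.83.

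Whether Ang II infusion altered the factors was asked within cell type and genotype, where edgeR called 0% of genes and none of the 9 factors in any of the 5 comparisons. In *Il27ra*+/- LT-HSC 0 of 16365 genes were called (0%), 806 had an unadjusted p under 0.05, and DESeq2 called 0. The log2 fold changes of the 9 factors ran from -0.07 for *Mecom* to 0.29 for *Erg*, and *Runx1* had the smallest p (0.17, 95% interval -0.15 to 0.48, adjusted p = 1.00 by edgeR). *Runx1* was at 249, 223 and 255 CPM with PBS and at 312, 236, 303 and 250 CPM with Ang II, so the groups overlapped. In *Il27ra*-/- LT-HSC 0 genes were called by edgeR (0%), 150 at an unadjusted p under 0.05 and 1 by DESeq2. The factors ran from -0.16 for *Lyl1* to 0.41 for *Hlf*, and *Tal1* had the smallest p (0.26, 95% interval -0.11 to 0.62, adjusted p = 1.00 by edgeR). *Tal1* was at 151, 94.8 and 182 CPM with PBS and at 166, 150, 192 and 177 CPM with Ang II, and the lowest value was in the library with HPC-1 markers. Without that library edgeR again called none of the 9 factors, and they ran from -0.27 for *Mecom* to 0.07 for *Runx1*, with *Hlf* at 0.02 and *Tal1* at 0.03. Only 1 *Il27ra*-intact LT-HSC library with PBS was sequenced, so Ang II was not compared with PBS there.

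In *Il27ra*-intact HPC-1, edgeR called 0 of 13199 genes between Ang II and PBS (0%), with 420 at an unadjusted p under 0.05 and 1 called by DESeq2. The factors ran from -0.57 for *Prdm16* to 0.26 for *Hlf*, and *Tal1*, at 111 and 121 CPM with PBS and at 113, 101 and 74.9 CPM with Ang II, had a log2 fold change of -0.26 (95% interval -0.67 to 0.15, adjusted p = 1.00 by edgeR). In *Il27ra*+/- HPC-1 edgeR called 0 genes (0%), 519 had an unadjusted p under 0.05, and DESeq2 called 4. Here *Runx1* was at 258, 180 and 230 CPM with PBS and at 303, 237, 333 and 260 CPM with Ang II. The groups overlapped at 1 library each, and *Runx1* had the highest of the 9 log2 fold changes (0.34, SE 0.17, 95% interval -0.00 to 0.69, adjusted p = 1.00 by edgeR), while *Gfi1b* had the lowest, -0.72. In *Il27ra*-/- HPC-1 edgeR called 0 genes (0%), 244 had an unadjusted p under 0.05, and DESeq2 called 1. *Mecom* was at 46.5, 43.1 and 33.1 CPM with PBS and at 35.7, 11.1, 21.1 and 30.6 CPM with Ang II. All but 1 of the Ang II libraries were below the PBS libraries, and *Mecom* had the lowest of the 9 log2 fold changes (-0.73, SE 0.42, 95% interval -1.59 to 0.13, adjusted p = 1.00 by edgeR), with *Runx1* the highest, 0.19. This interval of *Mecom*, and that of *Gfi1b* in *Il27ra*+/- HPC-1 (-1.60 to 0.16), admit a decrease of moderate size and little increase. A p over the threshold does not show that the factors did not differ.

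Genotypes were compared within each cell type and agent, and several of these comparisons share libraries. In Ang II LT-HSC of *Il27ra*+/- against intact mice, edgeR called 0.831% of genes and none of the 9 factors, with 2563 genes at an unadjusted p under 0.05 and 436 genes but 0 factors called by DESeq2. For *Il27ra*-/- against intact mice edgeR called 1.69% of genes and again none of the 9 factors, with 2896 genes at an unadjusted p under 0.05 and 790 genes but 0 factors by DESeq2. *Gfi1b* had the smallest p of the 9 in both, at 23.6 and 31.3 CPM in the intact libraries, at 51.8, 50.1, 89.2 and 53.8 CPM in *Il27ra*+/- and at 48, 38.3, 61.7 and 68 CPM in *Il27ra*-/-. The intact libraries were thus below all 8 others, whereas the intact library with PBS, at 55.1 CPM, was inside the range of the other genotypes. The share of all genes that separate in this way was not counted. For *Il27ra*+/- the log2 fold change of *Gfi1b* was 1.17 (SE 0.37, 95% interval 0.41 to 1.94, adjusted p = 0.13 by edgeR). For *Il27ra*-/- it was 0.99 (SE 0.36, 95% interval 0.23 to 1.76, adjusted p = 0.16 by edgeR). *Gfi1b* passed in some alternatives. For *Il27ra*+/- these were the model without the library with HPC-1 markers (1.17, adjusted p = 0.0463), without both LT-HSC *Il27ra*-/- replicate 2 libraries (1.18, 0.0231) and without a filter on low counts (1.19, 0.0133), in a range of adjusted p from 0.0133 to 0.69. For *Il27ra*-/- they were the model without both replicate 2 libraries (1.12, adjusted p = 0.0229) and without a filter (1.01, 0.0385), in a range from 0.0229 to 0.52. The intact LT-HSC libraries are those with 557 to 936 CPM of intestinal genes, whose part in the *Gfi1b* values was not tested. They also all held Y-linked counts, and the Ang II LT-HSC libraries of the other genotypes with such counts had *Gfi1b* at 51.8, 50.1, 48 and 38.3 CPM, lower than those without.

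*Il27ra*-/- and *Il27ra*+/- LT-HSC were closer. With Ang II, edgeR called 0 genes between them (0%), 426 had an unadjusted p under 0.05, and DESeq2 called 2. The log2 fold changes of the factors ran from -0.18 for *Runx1* (SE 0.14, 95% interval -0.47 to 0.11), which had the smallest p, to 0.23 for *Hlf*. *Runx1* was at 312, 236, 303 and 250 CPM in *Il27ra*+/- and at 266, 186, 259 and 257 CPM in *Il27ra*-/-, and the groups overlapped. With PBS, edgeR called 0 genes (0%), 653 had an unadjusted p under 0.05, and DESeq2 called 1. The factors ran from -0.53 for *Gfi1b* to 0.40 for *Lyl1* (SE 0.23, 95% interval -0.08 to 0.88, adjusted p = 0.98 by edgeR), which was at 40.8, 53.6 and 70 CPM in *Il27ra*+/- and at 60.3, 86 and 72.4 CPM in *Il27ra*-/-. The 86 CPM was in the library with HPC-1 markers. Without it edgeR called none of the 9 factors, and they ran from -0.19 for *Gfi1b* to 0.42 for *Erg*, with *Lyl1* at 0.26.

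In PBS HPC-1, *Hlf* and *Mecom* had low values in the intact libraries. *Hlf* was at 70.8 and 72.8 CPM in intact, at 169, 172 and 103 CPM in *Il27ra*+/- and at 182, 218 and 139 CPM in *Il27ra*-/- libraries. *Mecom* was at 16.9 and 12.3 CPM in intact, at 50.6, 61.4 and 20.5 CPM in *Il27ra*+/- and at 46.5, 43.1 and 33.1 CPM in *Il27ra*-/- libraries. For both genes the 2 intact libraries were below all 6 others. How many of all genes separate in this way was not counted, so that separation is a description only. For *Il27ra*-/- against intact, edgeR called 0.0152% of genes, 2 in all, and none of the 9 factors, with 865 at an unadjusted p under 0.05, and DESeq2 called 25 genes, 1 of them *Hlf*. *Hlf* was at 1.32 on the log2 scale (SE 0.35, 95% interval 0.59 to 2.04, adjusted p = 0.44 by edgeR), and it passed with DESeq2 (1.34, adjusted p = 0.0498), with the compared groups fitted alone (1.34, 0.0211) and without a filter on low counts (1.35, 0.00065), in a range of adjusted p from 0.00065 to 1.00. *Mecom* was at 1.49 (95% interval 0.36 to 2.61, adjusted p = 0.62 by edgeR). For *Il27ra*+/- against intact, edgeR called 0 genes (0%), 631 had an unadjusted p under 0.05, and DESeq2 called 6. *Hlf* was at 1.04 (95% interval 0.32 to 1.75, adjusted p = 0.97 by edgeR), and it passed without a filter on low counts (1.06, adjusted p = 0.034), in a range from 0.034 to 1.00. *Mecom* was at 1.59 (95% interval 0.46 to 2.72, adjusted p = 0.97 by edgeR). Some progenitor markers moved with these values. *Flt3* was at 220 and 91 CPM in the intact libraries and at 308 to 618 CPM in the other PBS HPC-1 libraries, and *Mpo* at 5499 and 5990 CPM against 2203 to 4709 CPM. The 10 multipotent progenitor markers, led by *Mpo*, summed to 7566 and 7833 CPM against 4499 to 6919 CPM, and the 12 megakaryocytic genes, led by *Itga2b*, to 165 and 183 CPM against 105 to 141 CPM. As mean log2 CPM the same 10 progenitor markers were at 7.84 and 7.68 in the intact libraries and at 7.70 to 8.13 in the others. By that measure the progenitor list as a whole was not higher in the intact libraries. The 8 mast cell and basophil genes, led by *Cpa3* in each of these libraries, summed to 69.2 and 135 CPM in the intact and to 23.2 to 48.3 CPM in the others. The intact HPC-1 libraries carried intestinal genes as well, at 147 to 521 CPM, and the part of these markers and genes in the *Hlf* and *Mecom* values was not tested.

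In Ang II HPC-1 the same genes had the smallest p. *Mecom* was at 28.7, 14.6 and 5.2 CPM in intact, at 29.5, 34.6, 46.9 and 29 CPM in *Il27ra*+/- and at 35.7, 11.1, 21.1 and 30.6 CPM in *Il27ra*-/- libraries. The intact libraries were below all *Il27ra*+/- libraries, and overlapped with the *Il27ra*-/- libraries. In these groups the share of all genes that separate between genotypes was not counted. For *Il27ra*+/- against intact, edgeR called 0 genes (0%), 975 had an unadjusted p under 0.05, DESeq2 called 2, and *Mecom* was at 1.07 on the log2 scale (SE 0.44, 95% interval 0.15 to 1.98, adjusted p = 0.65 by edgeR). For *Il27ra*-/- against intact, edgeR called 0 genes (0%), 661 had an unadjusted p under 0.05, and DESeq2 called 2. There *Hlf*, at 97.8, 73.5 and 83.6 CPM in intact and at 162, 119, 107 and 133 CPM in *Il27ra*-/- libraries, had 4 of 4 *Il27ra*-/- libraries above the intact ones (0.59, SE 0.28, 95% interval 0.00 to 1.18, adjusted p = 0.95 by edgeR). Over PBS and Ang II, mast cell and basophil genes summed to 69.2 to 135 CPM in intact HPC-1 and 23.2 to 68.6 CPM in the other HPC-1 libraries. Intestinal genes summed to 147 to 521 and 47.6 to 119 CPM, and the part of either list in these values was not tested. Between *Il27ra*-/- and *Il27ra*+/- HPC-1, edgeR called 0 genes with Ang II (0%), with 375 at an unadjusted p under 0.05 and 0 by DESeq2, and the factors ran from -0.50 for *Mecom* (95% interval -1.31 to 0.31) to 0.29 for *Gfi1b*. With PBS, edgeR called 0 genes (0%), with 151 at an unadjusted p under 0.05 and 0 by DESeq2, and the factors ran from -0.24 for *Lyl1* (95% interval -0.73 to 0.25) to 0.29 for *Prdm16*.

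Interaction terms asked whether these effects differed between cell types or genotypes. For Ang II by cell type, over *Il27ra*+/- and *Il27ra*-/- mice, edgeR called 0 of 18013 genes (0%), 511 had an unadjusted p under 0.05, and DESeq2 called 0. *Tal1* had the smallest p, and its response to Ang II was higher in LT-HSC than in HPC-1 by 0.37 on the log2 scale (SE 0.17, 95% interval 0.02 to 0.71, adjusted p = 1.00 by edgeR). The term for loss of *Il27ra* by cell type compared *Il27ra*-/- with *Il27ra*+/- mice, over PBS and Ang II, and left out intact mice. For it edgeR called 0 genes (0%), 802 had an unadjusted p under 0.05, and DESeq2 called 8, none of them among the 9 factors. The factors ran from -0.45 for *Gfi1b* to 0.33 for *Lyl1* (95% interval -0.12 to 0.79), which had the smallest p, and from -0.27 for *Gfi1b* to 0.48 for *Mecom* without the library with HPC-1 markers. The terms for Ang II by genotype also compared only *Il27ra*-/- with *Il27ra*+/- mice. For the term in LT-HSC, edgeR called 0 genes (0%), 414 had an unadjusted p under 0.05, and DESeq2 called 0. The factors ran from -0.40 for *Lyl1* (95% interval -1.03 to 0.23) to 0.35 for *Hlf*. Without the library with HPC-1 markers the factors ran in that term from -0.42 for *Erg* to 0.01 for *Gfi1b*, and *Tal1* was at 0.24 in the term for Ang II by cell type. For Ang II by genotype in HPC-1, edgeR called 0 genes (0%), 169 had an unadjusted p under 0.05, DESeq2 called 0, and the factors ran from -0.39 for *Mecom* to 0.36 for *Gfi1b*. *Hlf* had the smallest p there, at -0.30 (95% interval -1.11 to 0.51).

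Levels of the factors were ordered within each cell type as CPM per kilobase of exon, with the exons of all annotated transcripts of a gene merged. That length can exceed that of the transcripts present, by unlike amounts between genes, so the order is approximate. In LT-HSC *Hlf* had the highest median level, 69.2 CPM per kilobase, followed by *Erg* at 65.6 and *Meis1* at 55.6 CPM per kilobase. *Hlf* was above *Erg* in 8 of 17 libraries and *Erg* above *Meis1* in 12 of 17, so neighbours at the top of this order did not differ beyond their spread, whereas *Meis1* was above *Tal1*, at 38.5 CPM per kilobase, in 17 of 17. *Lyl1* was at 34.3, *Gfi1b* at 29.4, *Runx1* at 21.2, *Mecom* at 20.5 and *Prdm16* at 12.5 CPM per kilobase. *Runx1* was above *Mecom* in 10 of 17 libraries, and *Mecom* above *Prdm16* in 17 of 17. In HPC-1 the order of the median levels was another, with *Erg* at 57.7, *Lyl1* at 41.1, *Meis1* at 23.6, *Tal1* at 22.6 and *Runx1* at 21.4 CPM per kilobase. *Hlf*, at the top of the order in LT-HSC, was the sixth in HPC-1, at a level of 17.8 CPM per kilobase, and *Gfi1b* was at 8.86, *Mecom* at 2.38 and *Prdm16* at 1.6 CPM per kilobase. *Lyl1* was above *Meis1* and *Gfi1b* above *Mecom* in 19 of 19 HPC-1 libraries, whereas *Meis1* was above *Tal1* in 10 of 19 and *Tal1* above *Runx1* in 13 of 19. *Prdm16* had the lowest median level in both cell types on the scale of CPM per kilobase, but in HPC-1 *Mecom* was above it in 13 of 19 libraries only, so those neighbours did not differ beyond their spread.

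**Figure D3:**
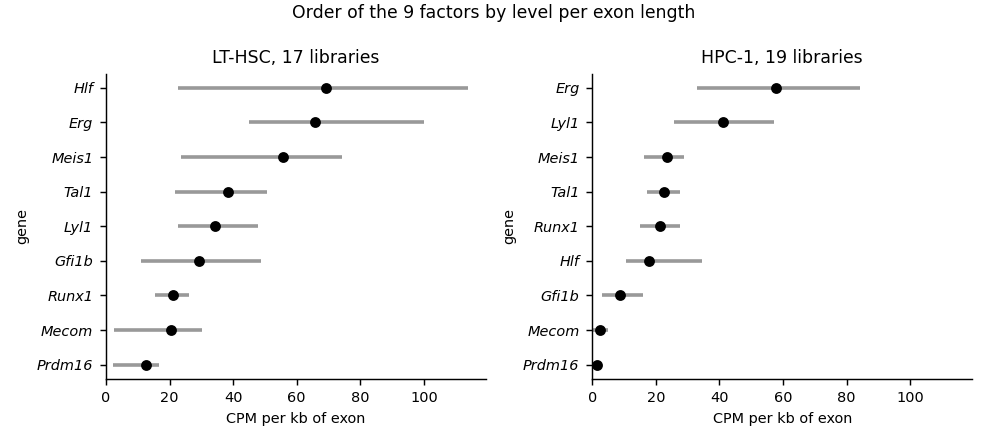
Level of each factor per length (horizontal axis, CPM per kilobase of exon) in LT-HSC (left) and HPC-1 (right), each in its own order from top to bottom. Points are medians over 17 LT-HSC and 19 HPC-1 libraries and lines run from the lowest to the highest library, with *Hlf* at 69.2 in LT-HSC and 17.8 in HPC-1.

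Within each cell type some factors varied together between libraries and others did not. Of the 36 pairs of factors, 6 had a Spearman's rho of at least 0.5 in both cell types, or 3 without the library with HPC-1 markers, 4 were below 0 in both, and 10 had opposite signs. Between *Mecom* and *Hlf* rho was 0.79 over the 17 LT-HSC and 0.84 over the 19 HPC-1 libraries, and 0.75 in LT-HSC without the library with HPC-1 markers. *Gfi1b* and *Tal1* had a rho of 0.71 in LT-HSC and 0.51 in HPC-1, and *Meis1* and *Erg* of 0.57 and 0.69, with 0.49 in LT-HSC without that library. *Gfi1b* and *Erg* were opposed, with a rho of -0.38 in LT-HSC, -0.66 without the library with HPC-1 markers, and -0.37 in HPC-1. These values describe libraries that differ in depth and in Y-linked counts, and both genes of a pair come from the same library.

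Among 10416 other genes with at least 5 CPM on average in both cell types, the most alike were named by the lower of both rhos. *Mecom* was closest to *Eya2* (0.80 in LT-HSC and 0.91 in HPC-1). *Hlf* was closest to the calcium pump gene *Atp2b4* (0.84 and 0.90) and the ascorbate transporter gene *Slc23a2* (0.83 and 0.84). *Prdm16* was closest to the Polycomb gene *Cbx6* (0.76 and 0.63) and to *Ttc21b* (0.72 and 0.60). *Eya2*, the gene closest to *Mecom*, encodes a transcriptional coactivator with phosphatase activity. *Meis1* was closest to *Zbtb20* (0.85 and 0.83) and *Fbxo11* (0.81 and 0.84). *Gfi1b* was closest to *March6* (0.79 and 0.74) and to *Car2* (0.74 and 0.72), the gene of a carbonic anhydrase of red cells. For the heptad members the values were of like size. *Erg* was closest to *Zbtb38* (0.88 and 0.84) and *Irf2* (0.88 and 0.82), *Runx1* to *Slx1b* (0.68 and 0.66) and *Herc2* (0.67 and 0.65), and *Tal1* to *Patz1* (0.75 and 0.70) and *4930581F22Rik* (0.67 and 0.73). *Lyl1* was closest to *Eef2* (0.84 and 0.77), a translation elongation factor gene, and to *Abhd15* (0.84 and 0.76). Without the LT-HSC library with HPC-1 markers, the rhos in LT-HSC ran from 0.61 for *Tal1* with *4930581F22Rik* to 0.86 for *Erg* with *Zbtb38*.

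Promoters of the 7 factors that passed between LT-HSC and HPC-1 were searched for motifs of the factor families on both strands. The motifs were the E-box CAGCTG (in 16.3% of 32851 promoters of the same length), the RUNX motif TGTGGT or ACCACA (16.8%), the GATA motif AGATAA or TTATCT (11.2%), the ETS motif CCGGAAGT or ACTTCCGG (3.89%) and the MEIS motif TGACAG or CTGTCA (19.2%). Each window ran from 250 bases before to 50 after a transcription start in RefSeq (GRCm38.p6), and 9 windows were searched. Those of *Meis1*, *Mecom* and *Tal1*, which were higher in LT-HSC, are shown because they were the 3 windows with a match, which is in capitals. The *Meis1* promoter (chr11:19018920-19019219, minus strand) held a RUNX and an ETS motif, the second *Mecom* promoter (chr3:30013155-30013454, minus strand) a MEIS motif, and the first *Tal1* promoter (chr4:115056176-115056475, plus strand) a GATA motif. A match describes the letters in the window, and no match in the other 6 windows says only that these letters were not in them.
Meis1: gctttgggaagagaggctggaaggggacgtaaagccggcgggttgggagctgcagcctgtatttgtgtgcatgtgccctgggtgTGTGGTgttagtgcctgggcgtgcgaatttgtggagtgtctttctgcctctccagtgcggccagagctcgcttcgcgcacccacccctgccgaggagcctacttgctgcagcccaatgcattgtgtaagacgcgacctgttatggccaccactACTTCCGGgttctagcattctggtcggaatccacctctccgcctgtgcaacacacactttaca
Mecom: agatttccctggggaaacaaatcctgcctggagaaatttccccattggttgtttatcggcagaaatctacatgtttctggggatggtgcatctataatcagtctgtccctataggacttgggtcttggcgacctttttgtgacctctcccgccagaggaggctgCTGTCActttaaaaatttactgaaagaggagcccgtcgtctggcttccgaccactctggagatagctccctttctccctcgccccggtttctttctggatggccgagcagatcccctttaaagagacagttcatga
Tal1: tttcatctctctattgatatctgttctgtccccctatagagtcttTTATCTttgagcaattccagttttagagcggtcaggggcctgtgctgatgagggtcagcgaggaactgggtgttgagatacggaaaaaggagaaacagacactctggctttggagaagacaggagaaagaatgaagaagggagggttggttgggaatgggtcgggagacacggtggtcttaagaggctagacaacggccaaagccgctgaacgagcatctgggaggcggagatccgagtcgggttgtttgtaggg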

How the data were processed

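RNA of sorted LT-HSC and HPC-1 was sequenced by the authors, and the deposited table holds expected counts from RSEM (version 1.2.31 in the labels) for mouse build mm10, with no value that was not a whole number. The labels name Bowtie2 as the aligner, whereas the methods of the study name STAR and another version of RSEM. Which of them made the deposited counts is uncertain. Of the 38887 identifiers, 37570 had a symbol and carried 99.63% of the counts, and 189 of 189 listed symbols were found. From these counts, edgeR 4.0.16 (R 4.3.3, limma 3.58.1) fitted quasi-likelihood models with TMM scaling after filterByExpr, with all 12 groups for comparisons between cell types and 6 groups within each. A gene passed at a Benjamini-Hochberg adjusted p under 0.05 over all genes. CPM used the same scaling factors, and log2 CPM a prior count of 2. All 9 members were named between cell types, otherwise those that passed or the 1 with the smallest p, and of each list up to 5 per direction. Likeness was the lower of both Spearman's rhos. Gene lengths were the merged exons of all transcripts of a gene in GENCODE mouse release 21. The members and lists were chosen with earlier results of these data known. Alternatives were relative log expression scaling, other filters, DESeq2 1.42.0, a replicate block, a Y-linked term, fewer libraries or groups, and leaving out each library. Scripts were tested on simulated data. Tables and figures used Python 3.11.15 with pandas 2.3.3, numpy 2.4.6, scipy 1.17.1 and matplotlib 3.10.9.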

Additional observations from a re-analysis of the deposited data

Results flagged for a closer look

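In 5 of 36 combinations of a factor with a group of 4 libraries, 1 library was far from the other 3, by Dixon's gap test at the 95% level, and chance gives about 1 in 20 such groups. *Mecom* was at 151 CPM in LT-HSC of Ang II-infused *Il27ra*-/- mice, replicate 2, and at 298 to 313 CPM in the other 3. *Runx1* was at 186 CPM in the same library, which carried granulocyte transcripts, and at 257 to 266 CPM in the others. *Erg* was at 342 CPM in replicate 1 of that group and at 207 to 227 CPM in the others. *Gfi1b* was at 89.2 CPM in LT-HSC of Ang II-infused *Il27ra*+/- mice, replicate 3, and at 50.1 to 53.8 CPM in the others. *Meis1* was at 199 CPM in HPC-1 of Ang II-infused *Il27ra*-/- mice, replicate 3, and at 248 to 256 CPM in the others.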

How the results depend on the processing

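Between LT-HSC and HPC-1, over all 5 conditions, 6 to 8 of the 9 factors passed in every alternative run, and 6 to 7 when any 1 library was left out. Single factors were followed where they passed, and all 9 for the mean over conditions. Under alternatives other than leaving out 1 library, 345 of these values kept their direction and their side of the threshold, 21 no longer passed, 1 passed newly and 1 reversed. When 1 library was left out, 438 kept both, 33 no longer passed and 1 reversed. Over all comparisons and factors, 24 values passed newly under the former and 3 under the latter, which were *Hlf*, *Gfi1b* and *Tal1* in PBS *Il27ra*-/- mice without LT-HSC replicate 2. *Runx1* reversed to -0.01 without the *Il27ra*-intact libraries, chosen after seeing the data, and to -0.00 without the HPC-1, Ang II, intact replicate 3 library, in a range of -0.00 to 0.14 when 1 library was left out.

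In PBS *Il27ra*+/- mice the 6 factors that passed between cell types became 2 without the 11 libraries with the most counts, and 3 to 6 when 1 library was left out. In PBS *Il27ra*-/- mice the 3 became 4 with DESeq2, 2 with Y-linked expression in the model, 5 without a filter on low counts, 6 without the library with HPC-1 markers, 6 without both LT-HSC replicate 2 libraries, 0 with the compared groups alone, and 0 to 6 when 1 library was left out. No count is given there without those 11 libraries, since only the LT-HSC replicate 1 library is then left in that group. In Ang II *Il27ra*-intact mice the 5 became 3 with the compared groups alone, and 4 to 5 when 1 library was left out. In Ang II LT-HSC, 0 factors became 1 for *Il27ra*-/- against intact mice without a filter and without both replicate 2 libraries, and 1 for *Il27ra*+/- against intact mice in those and without the library with HPC-1 markers. In PBS HPC-1 against intact mice, 0 became 1 for *Il27ra*-/- without a filter, with DESeq2 and with the compared groups alone, and 1 for *Il27ra*+/- without a filter. The cause was not tested.

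With a replicate block, the factors that passed became 0 in PBS *Il27ra*-/- and 3 in Ang II intact mice, where *Hlf* (2.00, adjusted p = 0.0644) and *Tal1* (0.57, 0.15) were lost. In PBS *Il27ra*+/- mice 6 passed with the block as well, but *Hlf* was lost (1.56, adjusted p = 0.058) and *Lyl1* gained (-0.66, 0.0367). Over 16 pairs of LT-HSC and HPC-1 libraries with the same number the correlation ran from -0.29 to 0.45, 9 were over 0.1, and the own number was highest in 10, a hint from the data and not the design. In 4 pairs, at -0.29 to 0.05, only 1 library had Y-linked counts, so the libraries of such a pair were not from the same mouse. The replicate block joined these 4 pairs all the same. The other 12 pairs ran from 0.03 to 0.45. The labels do not state that libraries with the same number are paired.

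Genes called between cell types ran from 4822 to 6996 over the alternatives for the mean over conditions and from 0 to 1414 for PBS *Il27ra*-/- mice. When 1 library was left out they ran from 507 to 1088 for PBS *Il27ra*+/-, from 1113 to 1600 for Ang II intact and from 1270 to 2858 for Ang II *Il27ra*-/- mice. Against intact mice in Ang II LT-HSC they then ran from 98 to 627 for *Il27ra*-/- and from 53 to 565 for *Il27ra*+/-. With 1980283 to 6861078 counts and 1 to 4 libraries a group, differences smaller than the intervals given were not detectable within a cell type. Antisense or overlapping transcripts could enter the counts of *Lyl1*, *Mecom*, *Meis1*, *Prdm16* and *Runx1*.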
